A study of Homo sapiens with 8 samples.

Results

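Endosomal and Golgi transport genes were examined in the human multiple myeloma lines OPM2, KMS11, KMS18 and KMS34, 4 in all. The members were chosen by gene symbol alone: RAB, ARL, SNX, VPS, STX or VAMP followed by a digit, ARF1 to ARF6, BLOC1S1 to BLOC1S5, LAMP1 to LAMP5, and adaptor (AP) subunits. The pattern found 133 rows of the array table, which name 126 genes out of 14812, and the brightest row stood for each gene. All 4 lines carry the t(4;14) translocation, which places NSD2 (MMSET), a histone methyltransferase gene, under immunoglobulin heavy chain control. Each line gave 1 array labelled control and 1 labelled MMSETI knockdown, an shRNA against the MMSET I isoform, so each condition had 4 arrays and each line 2. The labels give both conditions 1 protocol: lentivirus with 8 µg/mL polybrene, a change of medium after 24 h, and collection 48 h after that. The series text describes KMS11 alone, with 72 h of shRNA. What the control virus carried and the shRNA sequences are not given in the sources used here. The replicates of the knockdown are the lines, each a long-established culture, and no line had a second culture of the same condition.

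Vesicle transport moves proteins between the endoplasmic reticulum, Golgi, endosomes, lysosomes and cell surface. Small GTPases of the RAB, ARF and ARL families mark each membrane and recruit effectors, coats bend the membrane, tethering complexes hold the vesicle at its target, and SNARE proteins such as syntaxins and VAMPs fuse the membranes. Sorting nexins and the retromer return cargo from endosomes, whereas ESCRT complexes send it into multivesicular bodies for breakdown in lysosomes. Myeloma cells descend from plasma cells, whose secretory pathway carries large amounts of immunoglobulin.

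The label promises more RAB genes than the pattern found among the rows with 1 symbol, 15835 of 44629. Whether other rows of the array measure RAB or AP genes was not examined. Of the RAB GTPases themselves the pattern matched 1 gene, RAB6D, and of the AP family 1 antisense transcript, AP4B1-AS1, both below the intensity limit used here. RAB effectors and regulators gave 9 members, all above the limit. The other members were 26 sorting nexins, 34 VPS genes, 14 syntaxins, 7 VAMPs, 5 ARF and 8 ARL GTPases, 5 ARL-interacting proteins, 2 BLOC1 subunits, 3 LAMP genes and 12 further symbols, mainly antisense, divergent, readthrough or pseudogene transcripts, with RAB5IF, RAB11B-AS1 and RAB30-DT among them. Other RAB and AP genes were not analysed here. The limit was the 25th percentile of the mean log2 intensity of all genes, an intensity of 46.7, and 116 of the 126 members passed it. The 10 that did not were RAB6D, AP4B1-AS1, ARL9, ARL11, ARL14, ARL14EPL, SNX7, SNX31, STX19 and STX17-DT. Of these, SNX7 had a mean of 58.7 in OPM2 and of 30.1 to 35.9 in the other lines.

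The arrays showed plasma cell genes in every sample, with CD38 lowest in KMS11 (50.6 and 83.2). The summed intensity of 8 plasma cell markers, SDC1, XBP1 and CD38 among them, was 8197 to 10954 in control and 7910 to 11345 in knockdown arrays. Summed myeloid markers (4 genes, with CD14 and LYZ below the limit) reached 252 to 266 and 232 to 257, and T and NK cell markers (3 genes) 167 to 199 and 184 to 208. B cell markers (2 genes) reached 110 to 147 and 103 to 144, and the 1 stromal and endothelial marker 49.5 to 54.8 and 51.3 to 62.3. These sums cover unlike numbers of genes. Of the plasma cell markers, CD27 (56.2 to 86.6) and POU2AF1 (70.7 to 88.4) were dim, in or below the range of the NK cell marker NKG7 (68.0 to 98.2). None of these markers had an unadjusted limma p under 0.05 for the knockdown. NSD2 had a log2 difference of -0.18 (limma, adjusted p = 0.472) and GLO1, which the series title names, of -0.76 (adjusted p = 0.00142). The exact permutation test within lines gave p = 0.125 for both, the smallest it can give. The NSD2 row does not separate the isoforms and is a weak check of the knockdown.

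Many lysosomal genes carry the letters CACGTG before their start, the core of the site that the lysosomal regulators TFEB and TFE3 bind. CACGTG is its own reverse complement, so both strands were searched at once, in the RefSeq window from 250 bases before to 50 bases after each start. It was found in 12 of 96 members with a window (12.5%), against 7.43% of all 27305 windows. The windows cover more genes than the 14812 named on the array, so the compared sets are unlike. Among the 12 were ARL9, below the intensity limit, and the readthrough transcript ARL2-SNX15. A longer palindrome, the same letters with GT before and AC after them, overlaps it by construction and was found in 1 member, RAB3GAP2 (1.04%), and in 0.381% of all windows. The 250 bases before the start (GRCh38.p14) follow for 4 members described further on, with CACGTG in capitals. They are shown because LAMP1 and VPS11 are lysosomal or late endosomal and hold more than 1 match, RAB3GAP2 holds the longer form, and STX6 was among the members with the smallest knockdown p.
LAMP1 (chr13:113296989-113297238, plus strand): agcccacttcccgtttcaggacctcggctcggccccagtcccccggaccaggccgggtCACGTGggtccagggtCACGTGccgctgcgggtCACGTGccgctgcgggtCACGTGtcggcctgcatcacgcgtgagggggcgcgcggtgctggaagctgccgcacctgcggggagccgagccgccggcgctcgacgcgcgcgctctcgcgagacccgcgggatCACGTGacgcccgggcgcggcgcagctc
VPS11 (chr11:119067568-119067817, plus strand): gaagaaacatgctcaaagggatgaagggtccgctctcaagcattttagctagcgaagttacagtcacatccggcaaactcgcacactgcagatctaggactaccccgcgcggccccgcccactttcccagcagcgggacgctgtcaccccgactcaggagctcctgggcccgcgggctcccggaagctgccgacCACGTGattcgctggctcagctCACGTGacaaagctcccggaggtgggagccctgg
RAB3GAP2 (chr1:220272454-220272703, minus strand): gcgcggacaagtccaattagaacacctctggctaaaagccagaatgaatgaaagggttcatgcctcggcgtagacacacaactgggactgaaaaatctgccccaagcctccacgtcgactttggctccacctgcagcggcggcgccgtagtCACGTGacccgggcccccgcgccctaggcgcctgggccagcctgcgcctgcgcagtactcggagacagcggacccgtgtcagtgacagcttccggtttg
STX6 (chr1:181022871-181023120, minus strand): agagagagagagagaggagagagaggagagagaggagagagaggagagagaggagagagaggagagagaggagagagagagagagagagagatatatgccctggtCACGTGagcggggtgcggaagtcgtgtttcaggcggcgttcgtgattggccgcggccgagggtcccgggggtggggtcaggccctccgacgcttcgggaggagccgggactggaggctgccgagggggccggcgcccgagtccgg
LAMP1 has 5 matches in these 250 bases and 6 in the whole window, VPS11 has 2, and the other two have 1 each. A match is only a description of the letters.

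The first question was how the lines differ in these genes. The 4 lines differed in most of them: 102 of the 116 tested members (87.9%) passed limma's moderated F test between lines at a Benjamini-Hochberg adjusted p under 0.05, where 75.7% of all tested genes passed. The line means (over the 2 arrays of a line) of 24 members spanned at least 2-fold, 20.7% against 18.8% of all tested genes. Ranges of line means had a median of 0.66 log2 units over the members and of 0.52 over all 11109 tested genes. Members were brighter than the tested genes as a whole, with a median intensity of 198 against 121. The error in these tests comes from how the knockdown difference varies over lines, so it rests on 1 pair of cultures per line and may be partly technical. Bulk RNA cannot tell fewer cells of a kind from less RNA per cell.

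**Figure D1:**
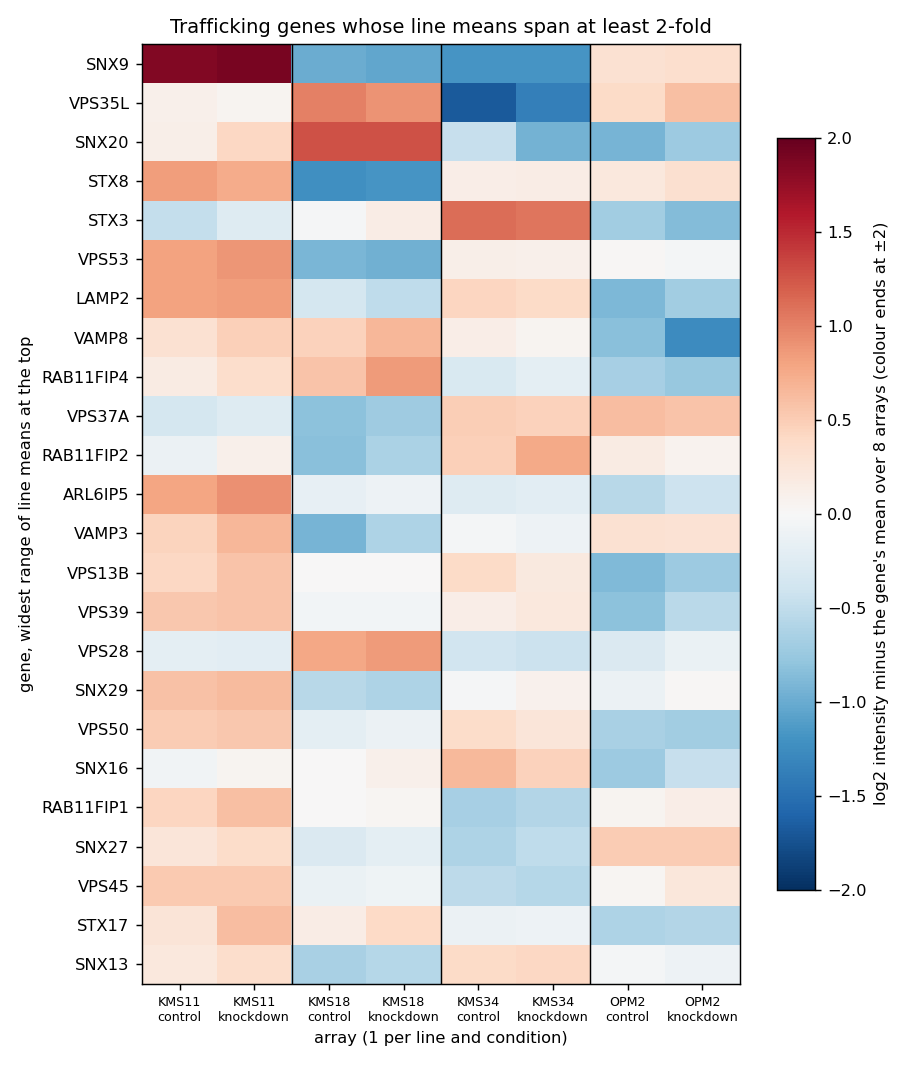
Log2 intensity of the 24 members whose line means span at least 2-fold, on each of the 8 arrays, relative to the gene's own mean; red is above it and blue below. The 2 arrays of a line have like colours in most rows, and SNX9, VPS35L and SNX20 have the widest ranges.

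In 75 of 116 members (64.7%) at least 1 line differed from each of the other 3 in pairwise limma tests, adjusted over all genes and 6 pairs of lines. Of all tested genes 47.7% did so. In a fit of the brighter genes, those above the median intensity, the shares were 71.6% of 102 members and 62.4% of all genes. KMS11 stood above the other 3 lines in 22 members (19%), against 12.5% of all genes, and below them in 2 (1.72%, against 4.79%). OPM2 stood below in 24 (20.7%, against 9.61%) and above in 5 (4.31%, against 5.63%). KMS18 stood below in 18 (15.5%, against 9.98%) and above in 7 (6.03%, against 4.11%), while KMS34 stood below in 12 (10.3%, against 4.33%) and above in 8 (6.9%, against 9.01%). Among the brighter genes OPM2 stood below in 22.5% of members and 13.8% of all genes, and KMS11 above in 22.5% and 16.4%. The counts moved with the scaling: median centring gave 31 members with KMS11 above, where 15.6% of all genes were. Quantile normalization gave 17 with KMS11 above (10.1% of all genes), 18 with OPM2 below (8.67%) and 12 with KMS18 above (5.46%).

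**Figure D2:**
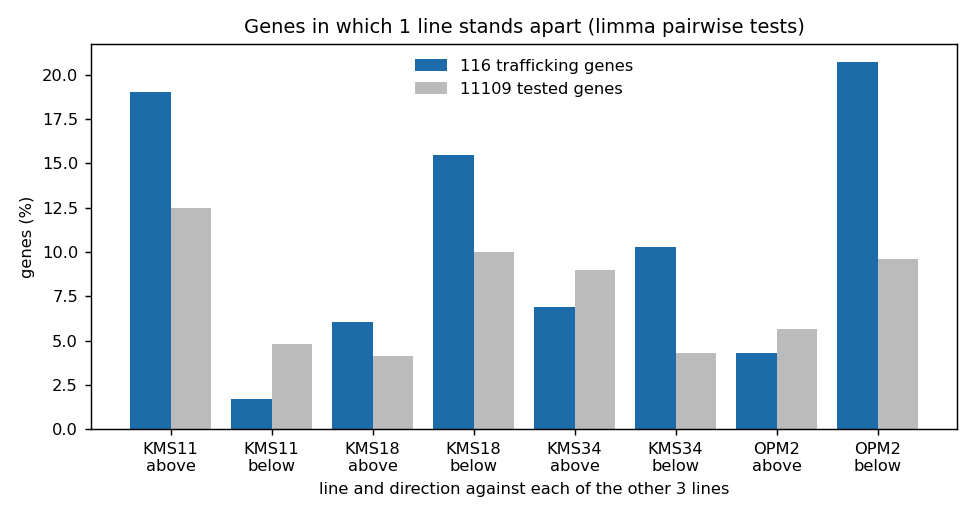
Percentage of the 116 trafficking genes (blue) and of all 11109 tested genes (grey) in which a line differed from each of the other 3 lines, by line and direction. The tallest blue bars are OPM2 below (20.7%) and KMS11 above (19%).

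Sorting nexins, which bind phosphoinositides on endosomes, held the widest range of all members. SNX9, which helps clathrin-coated pits to close and binds dynamin, had an intensity of 370 in the KMS11 control and 384 in the KMS11 knockdown array. In OPM2 it had 127 and 130, in KMS34 45.4 and 45.1, and in KMS18 a line mean of 50.7. KMS11 was thus 2.93-fold above OPM2 and the groups of arrays did not overlap (limma, adjusted p = 2.9e-08), while KMS18 and KMS34, close to the intensity limit, did not differ by the test (adjusted p = 0.14). The relative SNX18 followed another order, with 230.7 and 228.6 in KMS11, 248 and 246 in OPM2, 139 and 137 in KMS18, and 130.1 and 123 in KMS34. SNX20, which binds the selectin ligand PSGL-1, had 445 in both KMS18 arrays, 199 and 245 in KMS11, 134 and 95.9 in KMS34, and 96.8 and 112 in OPM2. KMS18 was 2.01-fold above KMS11, and KMS34 and OPM2 overlapped (adjusted p = 0.52).

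Of the 24 sorting nexins tested, 21 passed the F test, 17 had a line apart and 6 spanned at least 2-fold. The shares of all tested genes were 75.7%, 47.7% and 18.8%. SNX21, SNX22 and SNX8 did not pass. The SNX-BAR proteins that shape retromer tubules did not share an order of lines. SNX6 was highest in KMS11, at 766 and 776, and lowest in KMS18, at 380 and 418. SNX5, of the same class, was lowest in KMS34, at 258 and 244, and reached 452 and 447 in KMS18. SNX1 spanned 1.27-fold and SNX2 1.38-fold, less than SNX5 (1.79-fold) and SNX6 (1.94-fold). SNX27, which carries cargo with a PDZ-binding tail to the retromer, had 882 and 887 in OPM2 and 407 and 436 in KMS34, where it lay below the other 3 lines. SNX16 and SNX32 stood above in KMS34, but SNX32 had 151 in the KMS34 control and 101 in its knockdown array.

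The retromer, a VPS26, VPS29 and VPS35 trimer, and the related retriever, which holds VPS35L, VPS26C and VPS29, retrieve cargo from endosomes. All 6 subunits passed the F test, where 75.7% of all tested genes did. VPS35L had the second widest range of the members: 633 and 582 in KMS18, 409.5 and 474 in OPM2, 337 and 327 in KMS11, and 98.2 and 121 in KMS34. KMS34 lay 3.04-fold below KMS11, the next line, and KMS18 1.38-fold above OPM2. VPS26C, the other retriever-specific member, spanned only 1.28-fold and had no line apart. The paralogs VPS26A and VPS26B differed in which line was low. VPS26A had 230.1 and 289.6 in KMS18 and 394 to 457 in the other lines, whereas VPS26B had 136 and 134 in KMS11 and 180 to 230 in the others. VPS35 was lowest in KMS34, at 1049 and 1043, and VPS29 highest there, at 131 and 119.

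The tethers GARP and EARP catch vesicles from endosomes. They share VPS51, VPS52 and VPS53, with VPS54 particular to GARP and VPS50 to EARP. VPS53 had 669 and 706 in KMS11, 418 and 411 in KMS34, 389 and 372 in OPM2, and 203 and 198 in KMS18. KMS11 was 1.66-fold above the next line and KMS18 1.90-fold below. VPS54 was 1.60-fold above the next line in KMS11, at 229 and 208 against 100.3 to 148 elsewhere. VPS50 was lowest in OPM2, at 71.4 and 68.8, and highest in KMS11, at 158 and 161. The shared subunit VPS52 spanned 1.63-fold, from a line mean of 351 in OPM2 to 573 in KMS11. VPS51 spanned 1.22-fold, from 114 in OPM2 to 140 in KMS34. VPS50, VPS52, VPS53 and VPS54 were thus all highest in KMS11, and VPS51 was not. KMS11 had the highest line mean in 45.7% of all tested members and in 27.8% of all tested genes. The low line was OPM2 for VPS50 and VPS52, and KMS18 for VPS53.

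HOPS and CORVET tether late and early endosomes and share the VPS11, VPS16, VPS18 and VPS33A core. VPS39, a HOPS subunit, had 871 and 885 in KMS11 and 340 and 413 in OPM2, and stood apart in both. VPS8, a CORVET subunit, was lowest in OPM2 too, with a mean of 52.8 against 83.0 to 102.0. Of the core, VPS11 had no line apart, and VPS18 and VPS33A were lowest in KMS18. VPS41, of HOPS, spanned 1.29-fold. VPS33B, a relative of VPS33A that belongs to another complex, spanned 1.20-fold and did not pass the F test (adjusted p = 0.072). The SNARE regulator VPS45 was highest in KMS11, at 501 and 499, and lowest in KMS34, at 241 and 235.

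Of the ESCRT subunits, which sort ubiquitinated cargo, the ATPases VPS4A and VPS4B did not pass the F test. VPS4A had the smallest range of all 116 tested members, 1.07-fold, with 303 to 347 on the 8 arrays. VPS28, of ESCRT-I, had 875 and 922 in KMS18 and 382 to 470 on the other 6 arrays, 2.01-fold above KMS11. VPS36, of ESCRT-II, had 354 and 398 in OPM2 and 207 to 235.5 elsewhere, 1.65-fold above KMS11. VPS25, also of ESCRT-II, was highest in KMS11 and lowest in OPM2, so the RNA of these subunits did not share an order of lines. VPS37A was lowest in KMS18, at 92.8 and 99.7, and reached 251 and 242 in OPM2. KMS11 lay below the other lines in VPS37B by 1.21-fold, a call that was lost with median centring. Among the VPS13 lipid transfer proteins, VPS13B had 135 and 150.2 in OPM2 and 250.4 to 369 elsewhere, 1.76-fold below KMS18.

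Syntaxins and VAMPs are the SNAREs that drive fusion. STX8, which acts with STX7, VTI1B and VAMP8 in late endosome fusion, had 800 and 748 in KMS11, 518 and 555 in OPM2, 489 and 494 in KMS34, and 191 and 198 in KMS18. KMS18 lay 2.53-fold below KMS34 and KMS11 1.44-fold above OPM2. VAMP8 had another low line: 141.5 and 105 in OPM2, against 262 to 402 on the other 6 arrays, 2.21-fold below KMS34. STX7 was lowest in OPM2 as well, at 179.6 and 198, and highest in KMS11, at 314 and 337. VTI1B, outside the symbol pattern, had its lowest line mean in KMS18 (240) and its highest in OPM2 (343). Genes of this SNARE complex thus had different low lines.

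STX3, a plasma membrane syntaxin of polarised and granule secretion, had 314 and 303 in KMS34, 142 and 159.5 in KMS18, 103 and 120.3 in KMS11, and 89.2 and 79.1 in OPM2. KMS34 was 2.05-fold above KMS18. Of the 13 syntaxins tested, 10 passed the F test, where 75.7% of all tested genes did. STX1A, STX10 and STX4 did not, spanning 1.08-fold, 1.09-fold and 1.17-fold, while STX2 spanned 1.91-fold, STX6 1.76-fold and STX5, which acts between endoplasmic reticulum and Golgi, 1.51-fold. VAMP3, of recycling endosomes, was lowest in KMS18, at 207 and 255, against 367 to 620 elsewhere. VAMP7, which fuses lysosomes with the cell surface, was lowest in OPM2, at 591.5 and 616, and VAMP4 of the trans-Golgi network at 147 and 172. VAMP1 had 186.5 and 181 in KMS34 and 106 to 114 elsewhere. OPM2 stood above in VAMP2, at 145 and 146 against 82.7 to 113 elsewhere, and in STX2 by 1.22-fold over KMS11, a call lost with median centring.

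**Figure D3:**
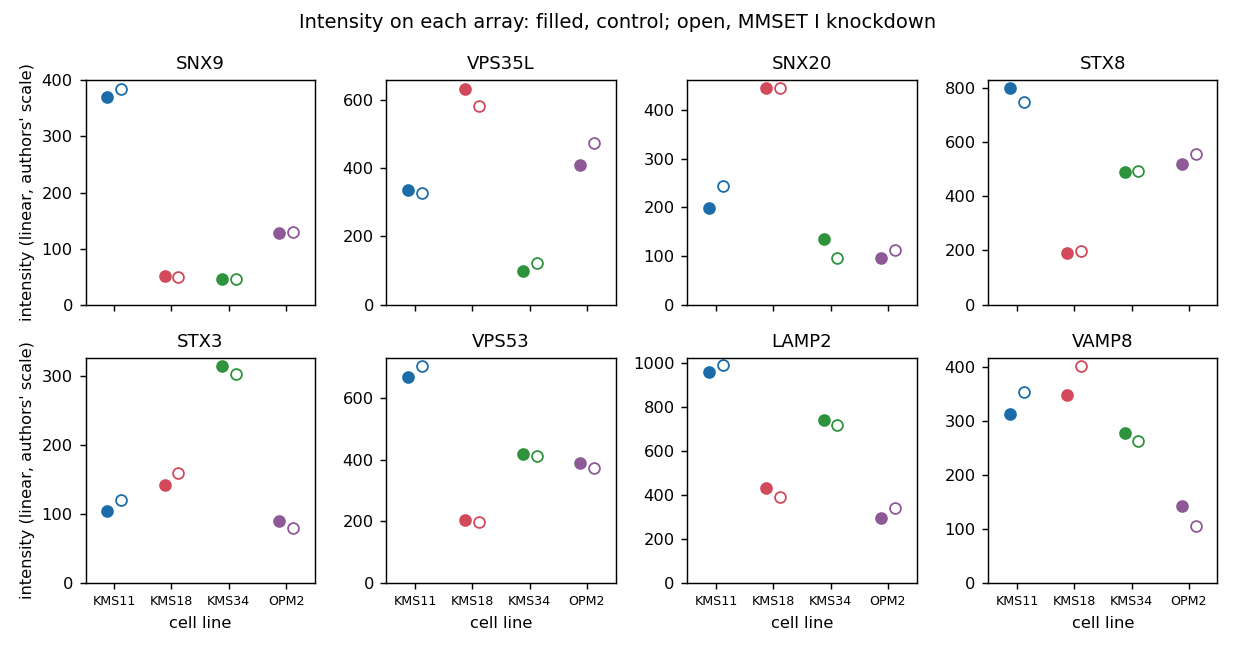
Intensity of 8 members on each array, on a linear axis from 0; filled points are control and open points knockdown arrays, and colours are lines. SNX9 runs from 45.1 in KMS34 to 384 in KMS11, and the high and low lines differ from panel to panel.

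LAMP1 and LAMP2 are the main glycoproteins of the lysosomal membrane. LAMP2 had 957 and 988 in KMS11, 742 and 716 in KMS34, 431 and 389 in KMS18, and 295.5 and 340.4 in OPM2, with KMS11 above and OPM2 below the other lines. LAMP1, with the repeated CACGTG shown above, also was lowest in OPM2, at 380.5 and 351, but highest in KMS18, at 614 and 694. KMS11 and KMS18 did not differ by the test in LAMP1 (adjusted p = 0.069). LAMP3, known from mature dendritic cells, was near 52.1 to 61.7 in KMS18 and OPM2 and 86.2 to 102 in KMS11 and KMS34. The BLOC1 subunits, of a complex for lysosome-related organelles, had no line apart; BLOC1S4 spanned 1.36-fold, and BLOC1S5 had line means from 231 in OPM2 to 347 in KMS18.

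RAB effectors and regulators all passed the F test, 9 of 9, and 5 had a line apart, against 75.7% and 47.7% of all tested genes. The RAB11 effectors of the recycling endosome took different orders. RAB11FIP2 had 264 and 322 in KMS34 and 107 and 123 in KMS18, and RAB11FIP4 had 159 and 193 in KMS18 and 67.6 and 63.1 in OPM2. RAB11FIP1 was lowest in KMS34, at 45.6 and 47.9, about the intensity limit, and RAB11FIP5 highest there, at 158 and 189.6. RAB3GAP1 and RAB3GAP2, the subunits of 1 GTPase-activating complex, spanned 1.48-fold and 1.55-fold with no line apart. ARF6, the plasma membrane ARF, was lowest in OPM2, at 412 and 415, against 562 to 754 elsewhere. The Golgi ARF1 was lowest in KMS18, and ARF5 did not pass the F test (adjusted p = 0.423). ARL6IP5, a membrane protein of the endoplasmic reticulum, had 2667 and 2906 in KMS11 and 1055 to 1434 elsewhere, 1.99-fold above KMS18. VPS72 stood above in OPM2 by 1.22-fold, a call lost with median centring; despite its symbol it encodes a subunit of a chromatin remodelling complex. The antisense transcript VPS9D1-AS1 had 162 and 157.5 in OPM2 and 258 to 302 elsewhere.

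Neighbouring genes were set beside the members named for a line apart, and examples follow. The 10 nearest tested genes on each side were used, in the order of the RefSeq table. Near VPS28, 20 of 20 neighbours were higher in KMS18 than the mean of the other lines, with a median log2 difference of 0.73, where VPS28 itself had 1.08. Of all tested genes 49.3% were higher in KMS18. Near VPS45 and RAB11FIP1, 17 and 16 of 20 neighbours were lower in KMS34, with medians of -0.29 and -0.31, against 52.5% of all genes. Near VPS13B, 16 of 20 neighbours were lower in OPM2, with a median of -0.57, against 46.9% of all genes. Near STX8 the neighbours did not share its low level in KMS18 (8 of 20 lower, median 0.06), nor did those of VPS35L in KMS34 (7 of 20 lower, median 0.10) or of VAMP8 in OPM2 (10 of 20 lower, median 0.01). Among members not listed above, 18 of 20 neighbours of VPS37B were lower in KMS11 (50.9% of all genes). Of those of STX2, 17 of 20 were higher in OPM2 (53.1%). By contrast, 2 of 17 neighbours of VPS9D1-AS1 were lower in OPM2, and 5 of 20 of ARL6IP5 were higher in KMS11. These counts are a description, and what the neighbours share was not tested.

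The second question was what the MMSET I knockdown changed. None of the 116 tested members passed limma's test with cell line as a block, at an adjusted p under 0.05, where 13 of 11109 genes (0.117%) did. At an unadjusted p under 0.05 were 12 members (10.3%), 9 with a mean above 0 and 3 below, against 8.41% of all tested genes. The shares by direction were 7.76% of members and 4.26% of all genes above 0, and 2.59% and 4.15% below. An ordinary paired test also called 0 members after adjustment, with 7 at an unadjusted p under 0.05. Without KMS18, 4 members had an unadjusted p under 0.05. Below 0 were 51 members (44%), against 51.6% of all genes. The mean difference lay between -0.20 and 0.21 log2 units in every tested member, with a median of 0.012 against -0.0033 in all genes. The same sign in 4 lines was seen in 20 members (17.2%) and 17% of all genes, 15 of them higher (12.9%, against 8.29%) and 5 lower (4.31%, against 8.76%).

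The 9 members with an unadjusted p under 0.05 and 1 sign in 4 lines were taken as examples, and their adjusted p-values were 0.447 to 0.593. ARF3, a Golgi ARF, had 168 and 138 (control and knockdown) in OPM2, 254 and 227 in KMS11, 209 and 176 in KMS18, and 213 and 202 in KMS34. Its mean log2 difference was -0.19 (standard error 0.064, limma adjusted p = 0.447), and its second row gave -0.27. Control and knockdown arrays overlapped across lines, and whether its probes share signal with the near-identical ARF1 was not tested. ARF1 was highest in OPM2 (line mean 1902), where ARF3 was lowest, and had a knockdown difference of -0.06. ARF4, which works with the other Golgi ARFs, went the other way: 966 and 1038 in KMS34, 811 and 983 in KMS18, 732 and 799 in OPM2, and 688 and 811 in KMS11. Its log2 difference was 0.19 (standard error 0.064, adjusted p = 0.459). SNX12, an endosomal sorting nexin, had -0.20 (adjusted p = 0.483), from -0.04 in KMS11 to -0.38 in KMS34.

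Syntaxins were 3 of the 7 examples above 0, out of 13 syntaxins tested. At an unadjusted limma p under 0.05 and above 0 were 7.76% of all tested members and 4.26% of all tested genes. Whether syntaxins differ from these shares was not tested. STX6, of the trans-Golgi network, had differences of 0.27 in KMS34, 0.21 in KMS18, 0.20 in KMS11 and 0.04 in OPM2, with a mean of 0.18 (adjusted p = 0.491). STX7 had 0.13, 0.22, 0.10 and 0.14 in the same order of lines, with a mean of 0.15 (adjusted p = 0.572). Of 7 members with a pair of rows, STX18-AS1 (0.07 and -0.03) and VPS51 (-0.02 and 0.11) gave opposite signs. STX17, which joins autophagosomes to lysosomes, had 0.01, 0.25, 0.35 and 0.03, so that its mean of 0.16 came mainly from KMS11 and KMS18. The others were ARL2BP, a binding partner of the GTPase ARL2, with a mean of 0.17 and a second row at 0.11, SNX19 with 0.19 (0.41 in KMS11 and 0.03 in KMS34), and the lipid transfer protein VPS13C with 0.17. None of these differences passed the adjusted threshold.

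**Figure D4:**
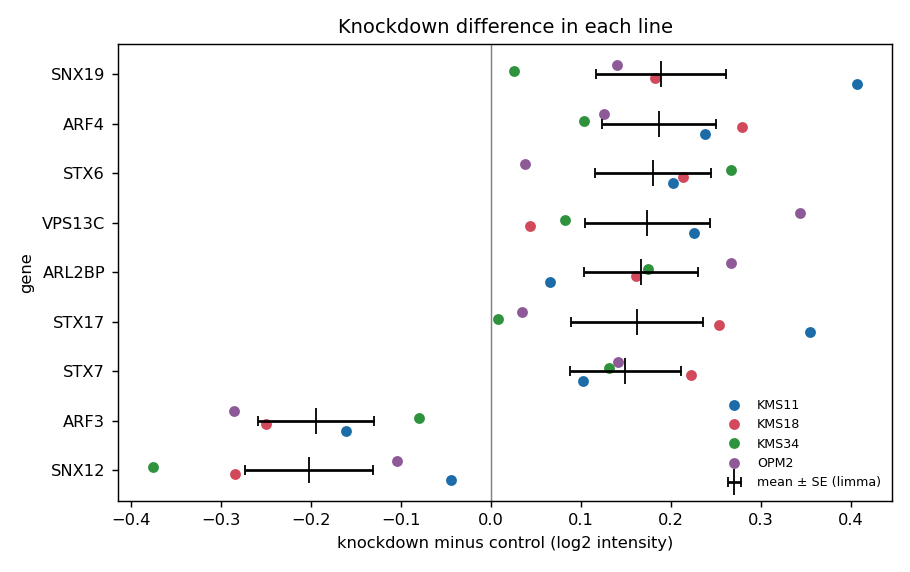
Log2 difference of knockdown minus control for the 9 members with an unadjusted p under 0.05 and 1 sign in 4 lines; coloured points are lines, black bars the mean and its standard error from limma. ARF3 and SNX12 lie below 0 and the other 7 above, and none passed the adjusted threshold.

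By class, 0 members passed in each. Means above 0 were seen in 8 of 9 ESCRT subunits (median 0.043), 15 of 24 sorting nexins (0.022), 9 of 13 syntaxins (0.016) and 6 of 9 RAB effectors and regulators (0.034). Means below 0 were seen in 6 of 7 genes of the HOPS and CORVET list (median -0.034), which also holds VPS33B (-0.10), and in 6 of 7 VAMPs (-0.025). The retromer and retriever subunits had 4 of 6 above 0 (median 0.030), and the LAMP genes 2 of 3 (0.012). The median over all tested genes was -0.0033, and 51.6% of them had a mean below 0. The class medians given here were smaller in size than the lowest standard error of a tested member, 0.060. Class directions were not tested.

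Within single lines, which have no test, 0 of 116 members reached 1.5-fold in either direction. Of all genes, 0.27% were higher and 0.243% lower by that fold in KMS11, and 0.045% and 0.081% in KMS18. The shares were 0.117% and 0.135% in KMS34, and 0.09% and 0.099% in OPM2. SNX32 came closest, from 151 to 101 in KMS34 (1.49-fold lower). VPS37D followed, from 80.0 to 116.7 in KMS34 (1.46-fold higher), and VAMP5 from 113.4 to 77.7 in OPM2 (1.46-fold lower). VAMP8, lowest in OPM2 before, had 1.34-fold less there with the knockdown, but 0.17 and 0.21 log2 units more in KMS11 and KMS18. At 1.3-fold in either direction were 5 members in OPM2 (4.31%, against 2.52% of all genes) and 3 in KMS34 (2.59%, against 2.22%). In KMS11 it was 1 member (0.862%, against 4.28%), and in KMS18 0, against 2.13%.

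Partner genes from lists of trafficking machinery outside the symbol pattern gave a like picture. Of 183 listed genes 120 had a named row and 116 were tested. Of these, 101 passed the F test between lines, where 75.7% of all tested genes did. For the knockdown 1 passed, where 0.117% of all genes did. At an unadjusted p under 0.05 were 7 above 0 and 4 below, where 4.26% and 4.15% of all genes were. The median difference was 0.0047, against -0.0033 in all genes. The 1 was BLOC1S6, a subunit of the same complex as BLOC1S4 and BLOC1S5, with 658 and 495 in KMS34, 558 and 429 in OPM2, 512 and 397 in KMS11, and 474 and 372 in KMS18. BLOC1S6 was to be named by plan, and the lists were chosen with earlier results of these data known. Its call is therefore no independent find. The gene fell by 0.38 on the log2 scale (standard error 0.060, limma adjusted p = 0.0422). The call was lost when any 1 of the 4 lines was left out, at adjusted p-values of 0.171 to 0.211, with no replicate block and under 3 other alternatives; the lowest adjusted p of any alternative was 0.00309 and the highest 0.999988. BLOC1S4 had -0.11 (adjusted p = 0.732), with -0.38 in OPM2 and -0.04 to 0.02 elsewhere, and BLOC1S5 had 0.03 (adjusted p = 0.934). The exchange factor subunit RIC1 had -0.23 (adjusted p = 0.379) and the exchange factor SBF2 0.23 (0.288). Between lines, the ARF exchange factor IQSEC1 spanned 5.20-fold, from 144 in OPM2 to 752 in KMS11, and the ESCRT-III genes CHMP4C and CHMP4B 4.95-fold and 3.98-fold, both lowest in OPM2.

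**Figure D5:**
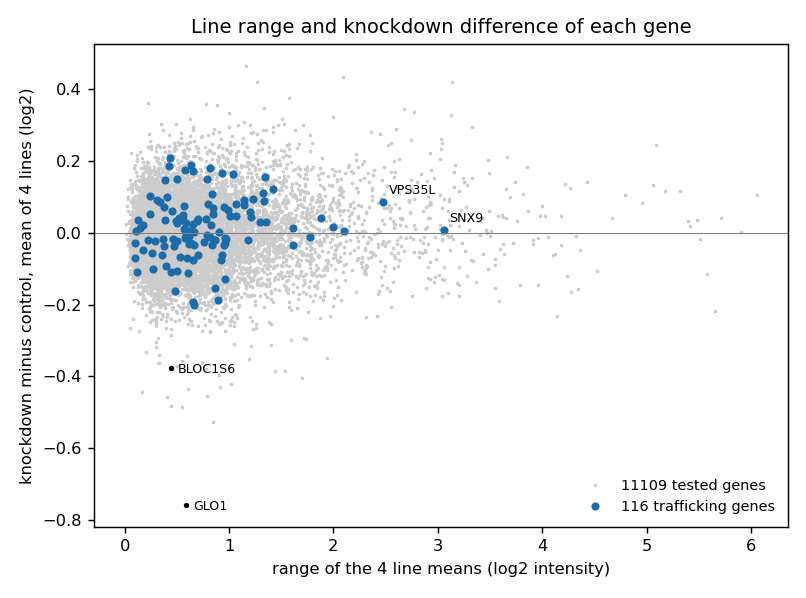
Mean knockdown difference (vertical, log2) against the range of the 4 line means (horizontal, log2) for 11109 tested genes in grey and 116 trafficking genes in blue. The trafficking genes reach ranges of 3.06 (SNX9) but stay between -0.20 and 0.21 in the knockdown, while GLO1 lies at -0.76 and BLOC1S6 at -0.38.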

How the data were processed

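Total RNA of 4 control and 4 knockdown cultures was hybridised to Affymetrix Human Gene 2.0 ST arrays, 1 per sample. The values the authors deposited are intensity on a linear scale, processed in GeneSpring per the labels of the series. Background correction and normalization: not given in the sources used here. The unit was judged from the values (18.9 to 13166, array medians 49.3 to 53.5), whose upper quartiles lay between 107.6 and 109.3. Detection calls were not used, so nothing is said on background, and the number of arrays limits precision.

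Rows with 1 symbol in the platform annotation (15835 of 44629) were kept, and 126 of 126 member symbols matched RefSeq (GRCh38.p14). Log2 values were fitted with limma 3.58.1 in R 4.3.3 with terms for line and knockdown, p-values adjusted by Benjamini-Hochberg over 11109 genes. Lines pair the arrays: deviations of control and knockdown arrays correlated at 0.925 to 0.932 within a line and at -0.135 at most across lines. Nothing says that cultures were repeated.

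The members and lists were chosen with earlier results of these data known. Named genes were those with an unadjusted p under 0.05 and 1 sign in 4 lines, up to 4 above and 3 below per line by the gap to the next line, the 4 smallest ranges and at least 1 per class; further members were named after their values were seen. The planned pairing of paralogs by protein identity was not run. On simulated data (11109 genes, knockdown comparison), 63% of log2 changes of 0.4 and 92.6% of 0.75 were called, with 4.07% false calls. Each draw held 200 changed genes, where 13 genes passed in the data, so these shares may not carry over. The alternatives were other scalings, intensity filters, row choices, variance models and left-out lines.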

Additional observations from a re-analysis of the deposited data

Results flagged for a closer look

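For 40 genes the control arrays, the knockdown arrays and the line differences were each searched for a sample far from the other 3, and 11 of 120 sets had one. Chance flags about 1 in 20 such sets, and most of these genes were named because a line stood apart. In KMS18, VPS28 was high in control (874.6, others 394.5 to 449.9) and knockdown (922.3, others 381.6 to 470.1), and SNX19 in knockdown (212.6, others 141.5 to 147.7). In KMS34, VAMP1 was high in control (186.5) and knockdown (181.2), and RAB11FIP5 in knockdown (189.6, others 101.5 to 114). In OPM2, VPS36 was high in control (354.1) and knockdown (397.6), and VPS9D1-AS1 low in control (162, others 275.5 to 286.6). In KMS11, ARL6IP5 (2906, others 1157 to 1434) and STX6 (538.8, others 306.9 to 336.2) were high in knockdown.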

How the results depend on the processing

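For the knockdown comparison, 63% of simulated log2 changes of 0.4 were called, with 200 changed genes per draw. Smaller changes were not simulated. The count of members past the adjusted threshold for the knockdown was 0 under every alternative run, with or without the replicate block. Members at an unadjusted p under 0.05 numbered 0 with no replicate block, 7 in the ordinary paired test and 4 to 9 with a line left out, 4 of them without KMS18. The F test passed 90 to 103 members, and a line stood apart in 73 to 89, with the number of members tested varying with the filter. In the fit of the brighter genes it was 73 of 102 members (71.6%, against 62.4% of all genes there). The main fit had 75 of 116 (64.7%, against 47.7%). Array medians spanned 0.12 log2 units, and scaling moved some counts: quantile normalization gave 12 members with KMS18 above and 8 with OPM2 above, and median centring 2 with OPM2 above, 1 with KMS11 below and 1 member at 1.5-fold in KMS34. Apart from KMS18 above, the shares of all genes under the same scaling are not given here. These counts therefore do not tell a shift of the members from a shift of all genes. A difference of 1.3-fold or more, with no test, was seen in 1 member in KMS11 (4.28% of all genes), 3 in KMS34 (2.22%) and 5 in OPM2 (2.52%). The cause was not tested. Of the named genes' gaps to the next line under all alternatives, 238 kept their call and 3 (VPS37B, STX2 and VPS72, each with median centring) lost it. GLO1 lost its call with no replicate block, in the paired test and with all rows tested. No result reversed.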
